A study of Homo sapiens with 4 samples.

Results

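Interferon-stimulated genes are the genes that cells switch on when interferon, a secreted antiviral signal, is sensed, and 39 of them were followed in RNA recovered with the motor protein KIF5A. They were taken as a list of symbols and matched to the Ensembl identifiers of the count tables. All 39 were found among the 60719 genes listed, and 36 passed the filter on low counts. IFITM1 and TRIM22 had too few counts to be tested, and EPSTI1 had 0 counts in every library.

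The cells were SKNAS, an established human neuroblastoma line, transfected with a plasmid for V5-tagged KIF5A, and RNA was taken from the eluate of anti-V5 magnetic beads a day later. KIF5A is a heavy chain of kinesin-1, which carries cargo along microtubules. Cells received either the V5-d27 KIF5A construct, the mutant that the study sets among ALS-associated KIF5A mutations, or the V5-WT KIF5A construct. Each construct had 2 precipitates, numbered RIP2 and RIP1 in the labels. All 4 libraries therefore share the tag, the lipid transfection, the bead precipitation and the line's own KIF5A, and the sequence change of d27 is not given in the labels. What the RIP number stands for (a culture, a day or a repeat precipitation) is not given either, so a p-value here reflects how far these precipitates differ among themselves, and that spread may be technical. Input RNA, mock precipitates and untransfected cells were not analysed here, so no value is an enrichment over background, and more of an RNA in the cells and more of it bound cannot be told apart. In the same way, fewer cells that hold an RNA and less of it per cell cannot be told apart in bulk libraries.

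Type I and type III interferons act through receptors, the kinases JAK1 and TYK2 and a complex that holds STAT2 and IRF9. That complex binds the interferon-stimulated response element, or ISRE, in the promoters of its target genes. Interferon gamma acts through a different promoter element, called GAS. The products of the target genes block viral entry, replication and release, and several of them sense RNA or amplify the signal. Cells can also start the response themselves when foreign nucleic acid enters the cytosol.

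Promoter sequences are shown for the genes whose values the results turn on, because the ISRE is what groups many of these genes. RefSeq promoters (GRCh38.p14) cover 250 bases before and 50 bases after a start site, and 31 of the 39 genes have an entry. The ISRE was searched on both strands as a motif of 10 letters, TTTC, 2 free letters and TTTC again, and 22 of the 31 genes (71.0%) held them, against 1195 of all 27305 genes in the promoter table (4.38%). The GAS letters, TTCNNNGAA, were found in 10 of the 31 genes (32.3%), against 2560 of all genes (9.38%), and some GAS matches overlap an ISRE match. A match is a run of letters and not a measured binding site. Each line below gives a stretch upstream of a start site, read in the gene's own direction, with the matched letters in capitals. The first 8 hold ISRE matches and the last a GAS match.
MX1 (chr21:41431834-41431883, plus strand, before 1 of its listed starts): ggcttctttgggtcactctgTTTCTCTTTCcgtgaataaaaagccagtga
IFIT1 (chr10:89392487-89392549, plus strand): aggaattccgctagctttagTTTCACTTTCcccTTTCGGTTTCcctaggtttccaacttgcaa
OAS3 (chr12:112938442-112938473, plus strand): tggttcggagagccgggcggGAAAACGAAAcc
ISG15 (chr1:1013364-1013419, plus strand): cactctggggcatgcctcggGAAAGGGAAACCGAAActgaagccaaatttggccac
SAMD9 (chr7:93118086-93118135, minus strand): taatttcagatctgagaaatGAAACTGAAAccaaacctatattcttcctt
HERC5 (chr4:88457025-88457074, plus strand): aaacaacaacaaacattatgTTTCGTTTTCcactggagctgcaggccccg
IFITM3 (chr11:320866-320932, minus strand): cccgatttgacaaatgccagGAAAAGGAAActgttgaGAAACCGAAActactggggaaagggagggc
PARP9 (chr3:122564312-122564361, minus strand): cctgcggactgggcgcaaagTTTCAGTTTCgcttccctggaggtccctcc
IRF1 (chr5:132490869-132490917, minus strand): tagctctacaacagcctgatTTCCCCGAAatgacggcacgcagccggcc
The lines of IFIT1, ISG15 and IFITM3 each show 2 ISRE matches, which overlap in ISG15. In HERC5 and OAS3, whose promoters hold 3 and 2 ISRE matches, the line shows the match nearest to the start. PARP9 and DTX3L run in opposite directions, and the PARP9 match is also the ISRE match of DTX3L, where it runs across the start site. MX2, IFIT2, OAS2 and OASL have no entry in the promoter table.

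The 4 libraries held 10483082 gene counts in d27 RIP2, 18335151 in d27 RIP1, 10811134 in WT RIP2 and 8142869 in WT RIP1. KIF5A itself took between 9.03% and 14.8% of gene counts, and its count adds transfected and endogenous transcripts, so it does not tell the constructs apart. The adrenergic neuroblastoma markers HAND2 and GATA3 were present in all 4 libraries, but not every marker of that list was. TH, the first enzyme of catecholamine synthesis, had 1 and 0 counts in d27 RIP2 and RIP1, and 0 and 5 counts in WT RIP2 and RIP1. CPM is counts per 1000000 gene counts, scaled here by TMM, edgeR's correction for composition. A count of 0 allows up to 3 counts, between 0.164 and 0.368 CPM before scaling, and this limit and all intervals cover counting error only.

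These genes differed more between RIP numbers than between constructs. Counts of all 39 genes together came to 1951 per 1000000 gene counts in d27 RIP2 and 848 in d27 RIP1, a 2.30-fold difference. They came to 1366 per 1000000 in WT RIP2 and 772 in WT RIP1, a 1.77-fold difference. The exact 95% binomial intervals were 1924 to 1977, 834 to 861, 1344 to 1388 and 753 to 791, in that order, so both RIP2 libraries stood above both RIP1 libraries. Within a RIP number the d27 library was 1.43-fold above the WT library in RIP2 and 1.10-fold in RIP1.

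**Figure D1:**
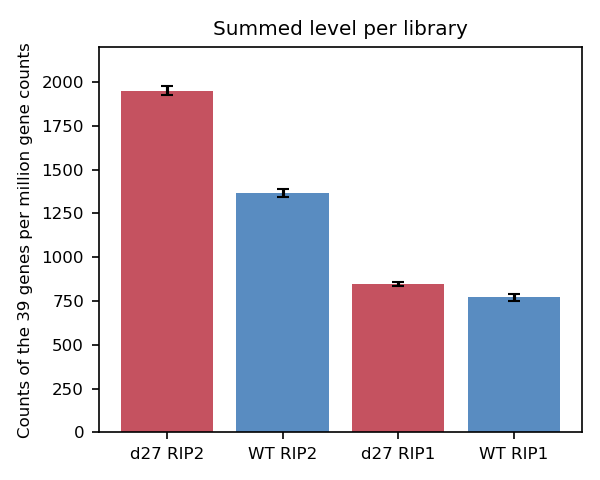
Counts of the 39 interferon-stimulated genes per 1000000 gene counts in each library, with exact 95% binomial intervals for counting error as bars. The RIP2 libraries reach 1951 (d27) and 1366 (WT), and the RIP1 libraries 848 (d27) and 772 (WT).

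Of the 36 genes tested, 35 had a higher fitted level in RIP2 than in RIP1, against 50.2% of all 14909 genes tested, and 25 were more than 2-fold higher (a log2 fold change above 1), against 5.88% of all genes. The median log2 fold change, RIP2 over RIP1, was 1.46 in the interferon-stimulated genes and 0.0028 in all genes. No gene of any kind passed the edgeR test at an adjusted p of 0.05, so 0 of 36 were called (0% of all genes). The lowest adjusted p in the table was 0.0869, which MX1, OAS3, IFIT3 and IFIT1 shared with other genes. Without adjustment, 31 of the 36 had a p under 0.05 with a higher level in RIP2, against 5.61% of all genes, and 0 had one with a lower level, against 5.43%. DESeq2, given the same contrast, called 13 of the 27 genes for which it gave an adjusted p, against 0.981% of its 8767 genes. Both RIP2 libraries lay above both RIP1 libraries in 32 of 36 genes, against 11.0% of all genes, and the exceptions were ISG20, IFITM3, OAS1 and DTX3L.

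The edgeR fit kept the construct as a term and left 1 residual degree of freedom, so its spread rests mostly on the estimate shared across genes. The number of interferon-stimulated genes called moved with the settings: it was 12 with library totals in place of TMM (0.315% of all genes), 11 with an offset for GC content and exon length (0.202%), 22 when only genes with at least 50 counts in 2 libraries were tested (1.52%), and 23 with no filter (0.509%).

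**Figure D2:**
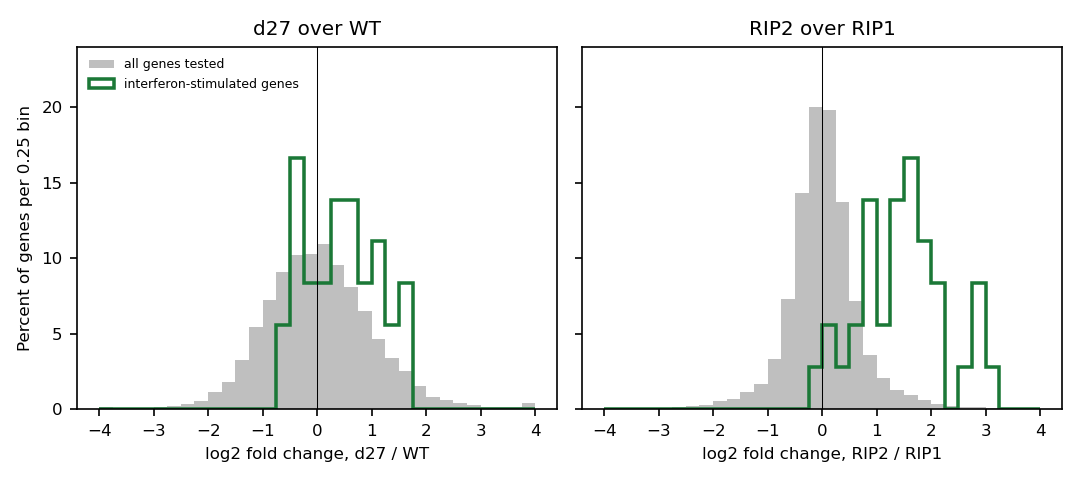
Histograms of log2 fold change in bins of 0.25 as a percent of genes, for RIP2 over RIP1 and for d27 over WT, with all 14909 genes tested in grey (values beyond 4 or -4 drawn at the edge) and the 36 interferon-stimulated genes tested as a green outline. The green outline is centred near 1.46 for RIP2 over RIP1 and near 0.45 for d27 over WT, while the grey histograms centre on 0.

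The OAS family makes short oligoadenylates when it meets double-stranded RNA, and these activate RNase L, which cuts RNA. All 4 members were higher in RIP2, with a median log2 fold change of 1.95, and an unadjusted p under 0.05 in each. OAS3 (ENSG00000111331.13, GRCh38 chromosome 12, 112938352 to 112973249), which binds long double-stranded RNA, had 344 CPM in d27 RIP2 and 111 in d27 RIP1, and 303 in WT RIP2 and 82.6 in WT RIP1. The RIP2 value was 3.10-fold the RIP1 value within d27 and 3.67-fold within WT, and the groups did not overlap (log2 1.75 ± 0.21 SE, edgeR adjusted p = 0.0869). Per kilobase of exon, OAS3 also had the highest mean level of the 36 genes tested, 25.5 CPM per kb.

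OAS2 (ENSG00000111335.13, chromosome 12, 112978395 to 113011723), another of these synthetases, had 27.1 CPM in d27 RIP2 and 5.70 in d27 RIP1, and 14.6 in WT RIP2 and 0.794 in WT RIP1. Its log2 fold change of 2.98 ± 0.49 (SE, edgeR adjusted p = 0.129) was 2.25 within d27 and 4.20 within WT, where RIP1 held only 7 counts. OASL, a family member that lacks the synthetase activity and boosts signalling by the RNA sensor RIG-I, had 16.4 CPM in d27 RIP2 and 4.29 in d27 RIP1, and 5.60 in WT RIP2 and 1.02 in WT RIP1. OASL groups did not overlap by RIP number, with d27 above WT in each (log2 2.15 ± 0.47, edgeR adjusted p = 0.210). OAS1 had 42.2 CPM in d27 RIP2 and 16.2 in d27 RIP1, and 15.3 in WT RIP2 and 7.71 in WT RIP1. The RIP groups of OAS1 overlapped, because d27 RIP1 was slightly above WT RIP2, and its edgeR adjusted p was 0.214.

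Among the 16 antiviral effectors, 14 were tested, 13 were higher in RIP2 and 11 had an unadjusted p under 0.05, with a median log2 fold change of 1.46. MX1 (ENSG00000157601.14, chromosome 21, 41420304 to 41459214), a dynamin-like GTPase that traps viral nucleocapsids, had 102 CPM in d27 RIP2 and 20.7 in d27 RIP1, and 57.2 in WT RIP2 and 4.42 in WT RIP1. That is 1105 and 381 counts in d27 and 552 and 39 in WT. The RIP2 values were 4.95-fold higher within d27 and 12.9-fold higher within WT, and MX1 had a fitted log2 fold change of 2.91 ± 0.33 (SE, edgeR adjusted p = 0.0869). MX2, its neighbour on chromosome 21, which restricts HIV, had 30.8 CPM in d27 RIP2 and 7.22 in d27 RIP1, and 11.7 in WT RIP2 and 0.907 in WT RIP1. The MX2 difference was 2.69 ± 0.44 on the log2 scale (edgeR adjusted p = 0.129), with RIP2 above RIP1 in both constructs.

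The IFIT proteins bind viral RNA and stop its translation. IFIT1 (ENSG00000185745.10, chromosome 10, 89392546 to 89406486) had 53.1 CPM in d27 RIP2 and 15 in d27 RIP1, and 26.0 in WT RIP2 and 4.20 in WT RIP1. Every RIP2 value lay above every RIP1 value (log2 2.18 ± 0.30 SE, edgeR adjusted p = 0.0869). IFIT2 had 49.0 CPM in d27 RIP2 and 16.1 in d27 RIP1, and 16.9 in WT RIP2 and 4.42 in WT RIP1. For IFIT2 the RIP groups only just separated, at 16.9 and 16.1 CPM (log2 1.75 ± 0.28, edgeR adjusted p = 0.120), and its position overlaps another gene on the same strand. IFIT3 and IFIT5 were also higher in both RIP2 libraries, with log2 fold changes of 1.84 and 0.76.

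SAMD9, a cytosolic factor that restricts poxviruses, had 52.9 CPM in d27 RIP2 and 24.2 in d27 RIP1, and 83.3 in WT RIP2 and 27.8 in WT RIP1. Its RIP2 values were above both RIP1 values and, unlike MX1, the WT library was the higher one in each RIP number (log2 1.36 ± 0.22 SE, edgeR adjusted p = 0.129). SAMD9L, its paralog, had a log2 fold change of 1.37. RSAD2, which encodes viperin, an enzyme that makes a chain-terminating nucleotide, had 1.56, and CMPK2, the nucleotide kinase gene beside it, had 1.32.

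IFITM3 (ENSG00000142089.16, chromosome 11, 319669 to 327537), a membrane protein that blocks fusion of viruses with endosomes, departed from this pattern. It had 24.5 CPM in d27 RIP2 and 13.2 in d27 RIP1, and 20.9 in WT RIP2 and 30.7 in WT RIP1. The highest and the lowest value were both RIP1 libraries, so the groups overlapped (log2 0.17 ± 0.36 SE, edgeR adjusted p = 0.908). IFITM1, IFITM2 and IFITM3 are near-identical paralogs, and reads that align to several places are not counted by HTSeq, so their counts are uncertain. ISG20, an RNA exonuclease, was the only gene of the 36 with a fitted level lower in RIP2 (log2 -0.07), and it had between 13 and 35 counts per library. The untested genes had 16 and 5 counts in d27 RIP2 and RIP1 and 9 and 3 in WT RIP2 and RIP1 (IFITM1), and 10 and 12 in d27 and 6 and 0 in WT (TRIM22).

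**Figure D3:**
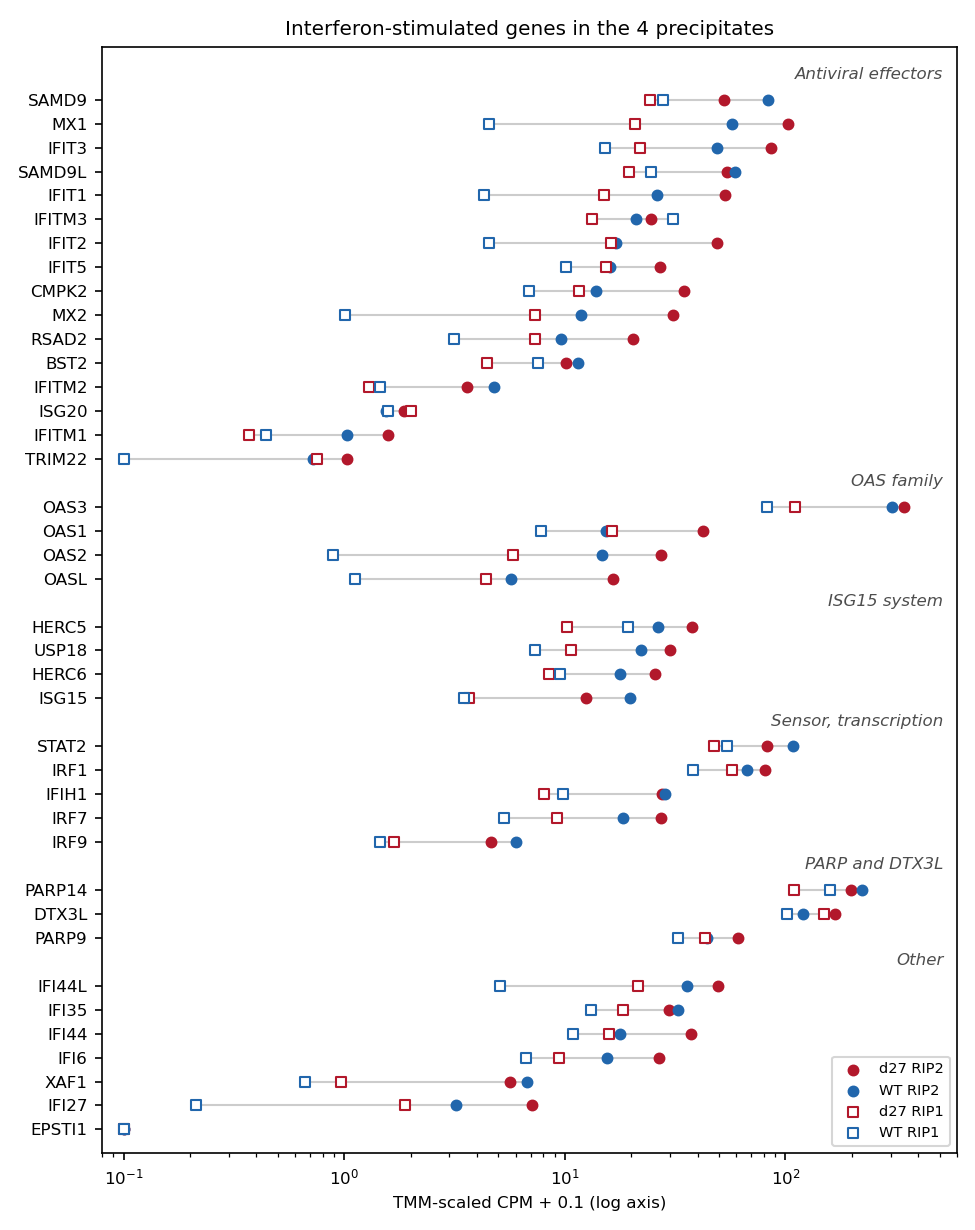
TMM-scaled CPM (0.1 added, log axis) of the 39 interferon-stimulated genes in the 4 libraries, grouped by role, with 1 point per library. In most rows the RIP2 points (d27 and WT) lie to the right of the RIP1 points, as for MX1 (102 and 57.2 against 20.7 and 4.42 CPM), and DTX3L and IFITM3 are among the rows where they do not.

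ISG15 is a ubiquitin-like protein attached to other proteins by the ligase HERC5 and removed by USP18, which also damps the interferon receptor. All 4 genes of this system were higher in RIP2 with an unadjusted p under 0.05, and the median log2 fold change was 1.41. ISG15 (ENSG00000187608.10, chromosome 1, 1001138 to 1014540) had 12.4 CPM in d27 RIP2 and 3.58 in d27 RIP1, and 19.6 in WT RIP2 and 3.40 in WT RIP1. The RIP1 values of ISG15 were close to each other and well below both RIP2 values (log2 2.14 ± 0.40 SE, edgeR adjusted p = 0.168). HERC5 (chromosome 4, 88457117 to 88506163) had 37.7 CPM in d27 RIP2 and 10.2 in d27 RIP1, and 26.4 in WT RIP2 and 19.2 in WT RIP1. The RIP2 values of HERC5 were higher in both constructs, but by 3.71-fold in d27 and 1.38-fold in WT (log2 1.19 ± 0.36, edgeR adjusted p = 0.293). USP18 had a log2 fold change of 1.54 and HERC6, an ISG15 ligase in mouse, 1.27.

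The 5 genes of sensing and transcription were all higher in RIP2 with an unadjusted p under 0.05, and their median log2 fold change was 1.67. STAT2 (ENSG00000170581.14, chromosome 12, 56341597 to 56360155), the signal transducer of type I interferon, had 82.7 CPM in d27 RIP2 and 47.2 in d27 RIP1, and 108 in WT RIP2 and 54.2 in WT RIP1. The STAT2 groups did not overlap (log2 0.90 ± 0.19 SE, edgeR adjusted p = 0.204). IRF1 (ENSG00000125347.14, chromosome 5, 132481609 to 132490798), a transcription factor induced by interferon gamma as well, had 81.0 CPM in d27 RIP2 and 57.3 in d27 RIP1, and 67.2 in WT RIP2 and 38.2 in WT RIP1. Its difference was smaller than that of STAT2, at 0.65 ± 0.20 on the log2 scale (edgeR adjusted p = 0.297), and it overlaps the antisense gene IRF1-AS1, from which it may not be told apart since the strand setting of the counting is not given. The other 3 had log2 fold changes of 1.67 for IFIH1, the RNA sensor MDA5, 1.68 for IRF7, which amplifies interferon production, and 1.80 for IRF9.

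Of the 6 roles, the 3 ADP-ribosylation genes had the smallest median log2 fold change, 0.46. Per kilobase of exon, DTX3L and PARP14 had mean levels of 23.0 and 16.4 CPM per kb. DTX3L, a ubiquitin ligase that pairs with PARP9, had 168 CPM in d27 RIP2 and 150 in d27 RIP1, and 120 in WT RIP2 and 102 in WT RIP1. These values separated by construct and not by RIP number (log2 for RIP2 over RIP1 0.20 ± 0.19 SE, edgeR adjusted p = 0.743). PARP9 had 60.9 CPM in d27 RIP2 and 43.3 in d27 RIP1, and 43.8 in WT RIP2 and 32.6 in WT RIP1, so its RIP groups met at 43.8 and 43.3 CPM (0.46 ± 0.21, edgeR adjusted p = 0.463). PARP14, a mono-ADP-ribosyl transferase, had 199 CPM in d27 RIP2 and 110 in d27 RIP1, and 221 in WT RIP2 and 160 in WT RIP1. The PARP14 groups did not overlap (0.67 ± 0.20, edgeR adjusted p = 0.292). PARP9 and DTX3L share bases on opposite strands.

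Of the 7 other interferon-induced genes, the 6 tested were all higher in RIP2 with an unadjusted p under 0.05, and the median log2 fold change was 1.67. XAF1, a partner of the apoptosis inhibitor XIAP, had the largest fitted difference of the 36, with 5.56 CPM in d27 RIP2 and 0.869 in d27 RIP1, and 6.63 in WT RIP2 and 0.567 in WT RIP1. These rest on 60 and 16 counts in d27 and 64 and 5 counts in WT (log2 3.05 ± 0.69 SE, edgeR adjusted p = 0.214), and XAF1 overlaps the gene PRAL. IFI27, a small mitochondrial protein, had 76 and 33 counts in d27 RIP2 and RIP1 and 30 and 1 counts in WT RIP2 and RIP1, which is 7.04 and 1.79 CPM in d27 and 3.11 and 0.113 CPM in WT. Within WT the ratio was 4.78 on the log2 scale with a counting interval of 2.19 to 10.1, and the fitted value was 2.81 ± 0.85 (edgeR adjusted p = 0.286). IFI44L, IFI6, IFI35 and IFI44 had log2 fold changes of 1.95, 1.39, 0.99 and 0.99.

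The difference between RIP numbers was seen within each construct. With 0.5 CPM added to each value, the median log2 ratio of RIP2 over RIP1 was 1.45 within d27, where 35 of 36 genes were above 0, and 1.48 within WT, where 34 were above 0. In all genes tested, 51.3% were above 0 within d27 and 49.2% within WT. The counting interval lay above 0 for 35 genes within d27 and for 34 within WT, and below 0 for 1 gene, IFITM3, within WT. For these counts of intervals the share over all genes was not computed. The ratio was larger in WT than in d27 for 22 of the 36 genes, and for 49.9% of all genes tested. These are ratios of 1 library over 1 library and have no replicate check.

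**Figure D4:**
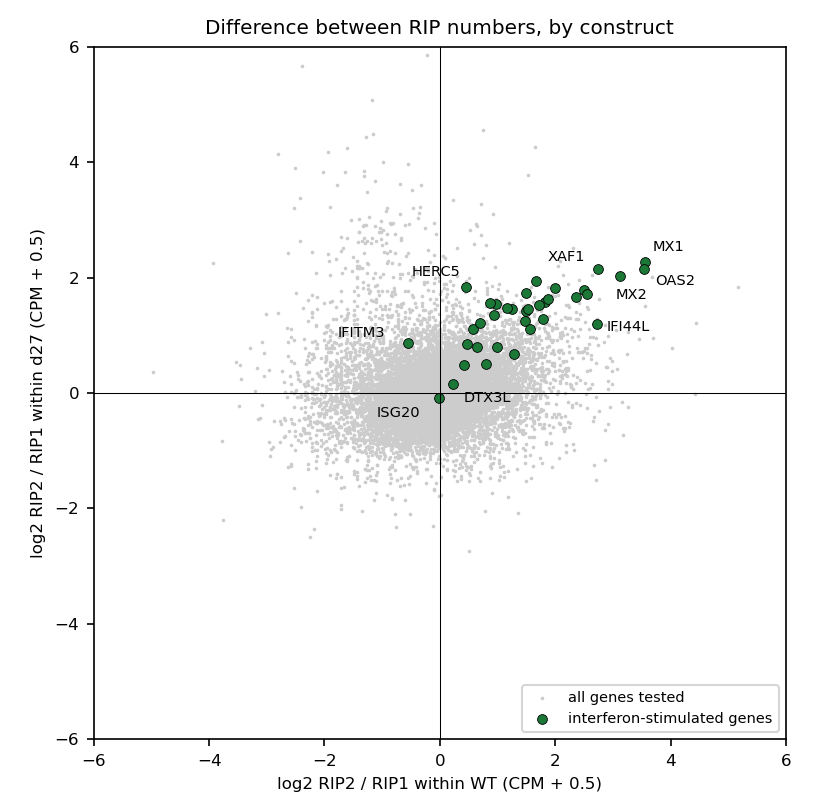
Log2 ratio of RIP2 over RIP1 (0.5 CPM added) within d27 on the vertical axis and within WT on the horizontal axis, for all 14909 genes tested in grey and the 36 interferon-stimulated genes in green. The green points lie mostly in the upper right, with medians of 1.45 within d27 and 1.48 within WT, and IFITM3 lies left of 0 on the WT axis.

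Between constructs, the interferon-stimulated genes did not pass the test in either direction when the construct was the only term of the fit. None of the 36 was called in d27 over WT by edgeR in that fit (0 higher, against 8.00% of all genes, and 0 lower, against 3.70%), and the lowest adjusted p was 0.126, of OAS1. Without adjustment, 2 had an edgeR p under 0.05, OAS1 and IFIT2, both higher in d27 (unadjusted p of 0.0322 and 0.0494 in the model across all genes), against 17.0% of all genes with a higher level. DESeq2 called OAS1 higher in d27 (adjusted p = 0.0401), 1 of the 33 genes for which it gave an adjusted p, against 14.6% of its 11774 genes. The fitted log2 fold change was above 0 in 25 of 36, against 7453 of all 14909 genes, with a median of 0.45 and a range of -0.54 to 1.62, and a median of -0.00043 over all genes. Both d27 libraries lay above both WT libraries in 3 genes, ISG20, OAS1 and DTX3L, against 31.4% of all genes. In 32 of the 36 genes both RIP2 libraries lay above both RIP1 libraries. There d27 RIP1 lies below WT RIP2, so this count could not include them. With the RIP number as a further term, edgeR called 9 of the 36 higher in d27, against 14.3% of all genes. The labels do not say that the RIP numbers pair the libraries.

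The largest differences between constructs were in OASL (log2 1.62 ± 0.85 SE, edgeR adjusted p = 0.237), IFIT2 (1.60 ± 0.69, adjusted p = 0.162), MX2 (1.57 ± 1.05, adjusted p = 0.353), IFI27 (1.42 ± 1.16, adjusted p = 0.443) and OAS1 (1.33 ± 0.51, adjusted p = 0.126). The spread within a construct, which includes the difference between RIP numbers, was wide in each of these. IFIT2 averaged 32.6 ± 23.2 CPM in d27 and 10.7 ± 8.8 CPM in WT (SD, n = 2 each), and OAS1 averaged 29.2 ± 18.4 CPM in d27 and 11.5 ± 5.4 CPM in WT. DTX3L varied less within a construct, with 159 ± 13 CPM in d27 and 111 ± 13 CPM in WT, and a log2 fold change of 0.52 ± 0.23 (edgeR adjusted p = 0.173). With the RIP number as a further term of the fit, OASL, IFIT2, MX2 and OAS1 passed edgeR, and IFI27 and DTX3L did not. The adjusted p-values of the genes that passed are given with the processing.

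By role, the median log2 fold change of d27 over WT was 1.20 in the OAS family (4 of 4 above 0), 0.74 in the other interferon-induced genes (5 of 6) and 0.72 in the antiviral effectors (9 of 14). It was 0.45 in the ADP-ribosylation genes (2 of 3), 0.19 in the ISG15 system (3 of 4) and -0.12 in sensing and transcription (2 of 5). Named genes on the low side were ISG15 at -0.54, SAMD9 at -0.53, IFITM3 at -0.46, STAT2 at -0.32, PARP14 at -0.30 and XAF1 at -0.19, with edgeR adjusted p between 0.450 and 0.928. For 9 of the named genes the sign of the construct difference depended on the library left out or on a correction, and their values are given with the processing. Each fit with a library left out sets 1 RIP number of a construct against both of the other. The difference between RIP numbers therefore enters the construct difference in such a fit. With 1 library left out, the log2 fold change of d27 over WT ran from 0.52 to 1.93 in OAS1, 0.63 to 2.89 in IFIT2 and 0.18 to 5.16 in IFI27. The highest value of IFI27 came without WT replicate 2, where its WT level rests on 1 count. In these fits the lone library of a construct is assumed to vary like those of the other.

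Within a RIP number, d27 over WT had a median log2 ratio of 0.48 in RIP2 and 0.50 in RIP1 over the 36 genes. The ratio was above 0 in 25 genes in RIP2 and in 26 in RIP1, against 51.5% and 50.04% of all genes. Its counting interval lay above 0 for 23 genes and below 0 for 4 in RIP2, and above 0 for 22 and below 0 for 6 in RIP1. Such intervals cover counting error only, and the share of all genes with an interval off 0 was not computed. In MX1 the d27 library was 1.79-fold above the WT library in RIP2 and 4.68-fold in RIP1, and in ISG15 the ratio was 0.634-fold in RIP2 and 1.05-fold in RIP1. After the values were seen, one order was counted: 19 of the 36 genes ran WT RIP1, d27 RIP1, WT RIP2, d27 RIP2 from lowest to highest, against 2.02% of all genes. MX1, IFIT1, OAS3, USP18, IRF7 and IFI6 are among them. This order requires both RIP2 libraries above both RIP1 libraries, which held in 32 of the 36 genes and in 1636 of all genes. Of those 1636, 301 ran in this order.

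The rest of the interferon pathway showed smaller differences between RIP numbers. Of 9 interferon genes, none passed the filter. Their counts summed to 4 and 1 in d27 RIP2 and RIP1 and to 0 and 1 in WT RIP2 and RIP1. No transcript of these 9 genes was measurable at this depth, and other interferon genes were not looked at. Of 14 receptor and JAK-STAT genes, 13 were tested, 8 were above 0 in RIP2 over RIP1 and the median log2 fold change was 0.12. Of 14 nucleic acid sensing genes, 12 were tested, 9 were above 0 and the median was 0.26. Of 15 genes of MHC class I and antigen processing, 14 were tested, 10 were above 0 and the median was 0.20. None of the 39 tested genes of these lists passed edgeR between RIP numbers, and no gene of any kind did. Without adjustment, 12 of the 39 had an edgeR p under 0.05, of which 11 were higher in RIP2. Over all genes, 5.61% had such a p with a higher level in RIP2, and 5.43% with a lower level.

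Of the genes of these lists with the lowest p, several, such as RIGI, NLRC5 and PSMB8, are themselves known interferon targets. RIGI, the RNA sensor RIG-I, had 60.8 CPM in d27 RIP2 and 22.1 in d27 RIP1, and 24.6 in WT RIP2 and 10.8 in WT RIP1 (log2 1.33 ± 0.24 SE, edgeR adjusted p = 0.154). In RIGI both RIP2 values were above both RIP1 values, but the d27 RIP1 and WT RIP2 values were close. NLRC5, which drives MHC class I transcription, and PSMB8, an immunoproteasome subunit, had log2 fold changes of 1.02 and 0.90, IKBKE, a kinase that activates IRF3, 0.93, and IFNGR2, an interferon gamma receptor chain, 0.54, with edgeR adjusted p-values of 0.214, 0.267, 0.377 and 0.375.

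Between constructs 4 of the 39 tested genes of these lists passed edgeR, 3 higher and 1 lower in d27, a share near that of all genes (8.00% higher and 3.70% lower). In d27, TAPBP, which loads peptides on MHC class I, was higher (log2 0.98 ± 0.23 SE, adjusted p = 0.0336), with 188 and 187 CPM in d27 RIP2 and RIP1 and 90.4 and 99.4 CPM in WT. SOCS3, a feedback inhibitor of JAK signalling, was higher (0.97 ± 0.23, edgeR adjusted p = 0.0357), with 157 and 175 CPM in d27 RIP2 and RIP1 and 80.8 and 88.9 in WT. EIF2AK2, the RNA-activated kinase PKR, was higher (0.99 ± 0.25, edgeR adjusted p = 0.0423), with 222 and 252 CPM in d27 RIP2 and RIP1 and 135 and 103 in WT. JAK1 was lower in d27 (-1.19 ± 0.28, edgeR adjusted p = 0.0357), with 114 and 85.2 CPM in d27 RIP2 and RIP1 and 268 and 187 in WT. In each the constructs did not overlap, and all 4 calls were lost without d27 replicate 1, with adjusted p between 0.0915 and 0.161.

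Cell type markers were also compared between RIP numbers. The sum of the immune markers, nearly all of it PTPRC, was lower in RIP2 in both constructs. PTPRC itself did not pass edgeR between RIP numbers (log2 -0.28, edgeR adjusted p = 0.615). Between constructs PTPRC passed, lower in d27 than in WT (log2 -0.96, edgeR adjusted p = 0.0433). The sum of the immune markers was 82.2 and 104 CPM in d27 RIP2 and RIP1 and 164 and 190 CPM in WT RIP2 and RIP1. Without PTPRC it was 2.78 and 3.47 CPM in d27 RIP2 and RIP1, and in WT it was higher in RIP2, at 1.87 and 0.340 CPM. The T cell marker CD3E and the natural killer and myeloid cell marker FCGR3A had 0 counts in every library. Endothelial markers summed to 0.370 and 0.271 CPM in d27 RIP2 and RIP1 and to 1.45 and 1.47 CPM in WT RIP2 and RIP1, with CDH5 at 0. Adrenergic markers summed to 581 and 730 CPM in d27 RIP2 and RIP1 and to 812 and 830 CPM in WT RIP2 and RIP1. HAND2 held most of that sum in every library, with 424 and 557 CPM in d27 and 682 and 697 CPM in WT. Mesenchymal neuroblastoma markers summed to 2692 and 2917 CPM in d27 RIP2 and RIP1 and to 3474 and 3189 CPM in WT RIP2 and RIP1, with RIP2 lower in d27 and higher in WT. VIM held the largest part of that sum in every library. Of the 7 markers, 5 differed between RIP numbers at an unadjusted edgeR p under 0.05. The share of all genes with such a p was 5.61% for a higher level in RIP2 and 5.43% for a lower level. FN1, which encodes fibronectin, was higher in RIP2 (log2 1.08, edgeR adjusted p = 0.184). SNAI2 (-1.34, edgeR adjusted p = 0.143), PRRX1 (-0.89, 0.210), CD44 (-0.67, 0.361) and YAP1 (-0.49, 0.415) were lower in RIP2, and the part of these differences in the result was not tested. HTSeq entries assigned to no single gene took 36.8% and 25.9% of d27 RIP2 and RIP1 and 47.3% and 47.6% of WT RIP2 and RIP1. The 36 genes tested were near all genes in median GC content (48.5% and 48.2%), median exon length (4800 and 4707 bases) and median level (19.4 and 18.6 CPM). The 20 tested genes with an ISRE match had a median log2 fold change of 1.37 for RIP2 over RIP1, and the 9 with a promoter entry and no match had 1.27. Tested genes without a promoter entry are in neither median, and theirs ran from 1.54 (USP18) to 2.98 (OAS2). The search covered only the stated letters near a start site, and the part of the ISRE in the difference was not tested. What set the RIP2 and RIP1 precipitates apart is not given in the labels, and the part of culture, transfection or precipitation in the result was not tested.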

How the data were processed

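RNA from 4 anti-V5 precipitates (2 d27, 2 WT) was sequenced. The authors deposited 1 table of raw read counts per library, made with HTSeq on GRCh38, per the submitters' processing notes, which also name DESeq2. Per the labels' protocols, ribosomal RNA was depleted and a strand-marking kit used. Which aligner, annotation release, strand setting and versions were used is not given in the sources used here. HTSeq's summary entries (25.9% to 47.6% per library) were left out. Totals ran from 8142869 to 18335151 counts.

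From the counts, edgeR 4.0.16 (R 4.3.3; TMM, filterByExpr with minimum count 10 and total 15, robust quasi-likelihood test) fitted the construct alone, and the RIP number with the construct as a term, over 14909 genes, with Benjamini-Hochberg adjustment and a threshold of 0.05. SE is the log2 fold change over the square root of F. The test was tried on simulated data. DESeq2 1.42.0 was an alternative. Positions and lengths come from GENCODE 29. Genes named are those called, the 8 most abundant by mean CPM and the 5 largest differences in each comparison, and of other lists the called genes or the 2 of lowest p. ISG15, IFIT1, IFITM3 and HERC5 were added after their values were seen. The genes and lists were chosen with earlier results of these data known. Some genes that this rule or a marker list would name are not reported here.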

Additional observations from a re-analysis of the deposited data

Results flagged for a closer look

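IFITM3 moved in opposite directions between RIP numbers in the 2 constructs. Its log2 ratio of RIP2 over RIP1 (scaled CPM, nothing added) was 0.89 within d27 and -0.55 within WT, a difference of 1.44. The difference was not tested, since each ratio rests on 1 library over 1 library.

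HERC5 differed in opposite directions between constructs in the 2 RIP numbers. Its log2 ratio of d27 over WT was 0.51 in RIP2 and -0.92 in RIP1, a difference of 1.43, which was not tested either.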

How the results depend on the processing

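Genes called higher in d27 over WT numbered 1192 and became 1888 with no filter, 2137 with the replicate block and 697 to 2715 with 1 library left out. Those called lower numbered 551 and became 285 with library totals only, 1118 with DESeq2, 974 with no filter, 959 with at least 50 counts in 2 libraries, 1438 with the replicate block and 71 to 2136 with 1 library left out. Interferon-stimulated genes called higher in d27 were 0 with the fit reported, 1 with DESeq2, 4 with no filter, 9 with the replicate block (14.3% of all genes) and 0 to 3 with 1 library left out (3 without d27 replicate 1, 2 without WT replicate 2). With DESeq2 that was 1 of 33 interferon-stimulated genes, against 14.6% of all genes. With no filter it was 4 of 38, against 6.09%, and with the block 9 of 36. Counts from fits with 1 library left out are not set against such a share, since they leave a construct with 1 library. Same-numbered samples deviated together with r = 0.0797 over 14909 genes, so the RIP numbers are not shown to pair the samples over all genes. In the interferon-stimulated genes the median log2 ratio of RIP2 over RIP1 was 1.45 within d27 and 1.48 within WT (0.5 CPM added). The fit without the block counts that difference as spread within a construct. The 9 called with the block include IFIT2, IFIT1, OAS1, MX2, MX1, OASL and OAS2, with edgeR adjusted p = 0.00395, 0.0108, 0.0123, 0.0123, 0.0144, 0.0273 and 0.0405 and log2 fold changes between 1.27 and 1.99.

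Between RIP numbers, genes called higher were 0, and 47 with library totals only, 86 with DESeq2, 158 with no filter, 172 with at least 50 counts in 2 libraries and 30 with an offset for GC content and exon length. Genes called lower were 0, and 45, 40, 154, 78 and 6 under these settings. Interferon-stimulated genes among the higher were 12, 13, 23, 22 and 11, and 0 with DESeq2's size factors in edgeR or the RIP number alone. With library totals only, the median of all genes moved to -0.12 on the log2 scale and that of the interferon-stimulated genes was 1.35. Their counts per 1000000 became 2197 and 951 in d27 RIP2 and RIP1 and 1603 and 848 in WT RIP2 and RIP1 without KIF5A in the total, and 2226, 956, 1629 and 874 also without mitochondrial genes.

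IFITM3 turned to -0.55 (RIP2 over RIP1) within WT. For d27 over WT, HERC5 turned to -0.11 with that offset and to -0.19 with the replicate block, and XAF1 to 0.095 with the block. With 1 library left out, the log2 fold change of d27 over WT ran from -1.14 to 0.74 in HERC5, -1.65 to 1.23 in ISG15, -0.54 to 3.80 in MX1, -0.40 to 4.35 in OAS2, -0.77 to 1.47 in OAS3, -0.76 to 0.081 in PARP14, -1.17 to 0.48 in SAMD9, -0.75 to 0.28 in STAT2 and -2.01 to 2.47 in XAF1. These fits leave the constructs unbalanced for RIP number, so the difference between RIP numbers enters them. Within RIP2 and within RIP1, d27 over WT had the same sign in MX1, OAS2, OAS3, PARP14, SAMD9 and STAT2. It had opposite signs in HERC5, ISG15 and XAF1. The part of the RIP difference in each range was not tested. The calls of TAPBP, SOCS3 and JAK1 were also lost without WT replicate 2 (adjusted p = 0.0884, 0.0959 and 0.0928), those of TAPBP and SOCS3 with library totals only (0.0525 and 0.0557), and that of EIF2AK2 without WT replicate 1 (0.0528). Depth limits genes of few counts, such as IFI27 and XAF1 in WT RIP1.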
